A study of Zea mays with 6 samples.

Results

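The enzymes of the flavonoid and anthocyanin pathway were followed in RNA-seq libraries of developing maize (Zea mays) anthers. They were 9 rows of the gene count table, chosen by identifier out of 46430 rows: c2 (Zm00001d052673), whp1 (Zm00001d007403), chi1 (Zm00001d034635), fht1 (Zm00001d001960), pr1 (Zm00001d017077), a1 (Zm00001d044122), a2 (Zm00001d014914), bz1 (Zm00001d045055) and Zm00001d031489, listed as bz2. The study compared anthers labelled S3 to S5 from wild-type plants (WT, titled AA) with the same stages from zmrpn1-1 plants (titled aa and Mutator, genotype given as a knockout of ZmRPN1), with 3 libraries in each group. Mutator elements are transposons that maize geneticists use to disrupt genes. The labels do not name the inbred strain, the number of plants behind a library or how the WT and mutant plants were related. The p-values therefore rest on the spread among these libraries, part of which may be technical. By the series title ZmRPN1 affects pollen number. The comparison described here is how much RNA of each enzyme gene the mutant and WT anthers held.

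Flavonoids are built in a short chain of enzyme steps. Chalcone synthase joins a phenylpropanoid starter to malonyl units, and chalcone isomerase closes the ring to give a flavanone. A hydroxylase then turns flavanones into dihydroflavonols, from which a separate enzyme, flavonol synthase, makes flavonols on a side branch. Later enzymes reduce and oxidise dihydroflavonols to anthocyanidins, which are glucosylated and moved to the vacuole as red and purple pigments. In maize the tapetum, the anther layer that feeds the developing pollen, supplies flavonoids to the pollen surface. Plants that lack both chalcone synthase genes, c2 and whp1, have white pollen with impaired function.

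The pairing of names with identifiers was set by the list, since the gene names in the reference table (assembly Zm-B73-REFERENCE-NAM-5.0) matched 0 of the 44146 nuclear identifiers. It was checked by gene order. The count table runs along the chromosomes, and the microRNA precursor genes in it carry names that the reference also holds. Of the 9 names, 8 were in the reference and pr1 was not. In 7 of those 8 cases the row had the same place relative to its neighbouring precursors as the named gene did. For bz1 only the precursor after it could be compared, since its neighbouring precursors lay on different chromosomes. The row for chi1, for example, was 16 rows after MIR390a in the table, and the reference places chi1 at the 13th gene after MIR390a. The row for a1 lay 125 rows after MIR319a, against 114 genes in the reference. Of the 7 matching rows, 6 had both precursors on the same chromosome. For these the place between the precursors differed by at most 3.3 percentage points from that of the named gene. The name a2 stands for 2 reference genes, of which the one in the matching interval was used. This check places a gene in a neighbourhood and does not single out a row.

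The row listed as bz2 went against its name. Zm00001d031489 lay 695 rows after MIR482 and 1309 rows before MIR166i. The reference has bz2 on the far side of MIR166i, at the 6th gene beyond it. The values of this row are therefore given under its identifier, and bz2, which encodes a glutathione S-transferase that helps to move anthocyanin into the vacuole, is treated as not measured here. The identifier of pr1 could not be checked this way.

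Library totals ran from 16203290 to 29515176 counts, and WT replicate 3 was the deepest library. Pearson correlations of log2 CPM (CPM, a gene's counts relative to the library total as scaled by trimmed mean of M values, TMM), taken over genes, lay at 0.992 to 0.993 for libraries of the same group and at 0.979 to 0.982 for libraries of different groups. In all, 23477 genes had enough counts for the test. Of 62 symbols for regulators and other enzymes of the pathway and for anther, leaf, endosperm and root markers, 0 could be tied to a row, so the labelled tissue was not checked against its markers. The labels give no identifier for ZmRPN1, so its own RNA was not analysed here.

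Among the enzyme genes, pr1 was higher in zmrpn1 anthers and no other member passed the test. Of the 9 rows, 7 had enough counts to be tested, and edgeR's quasi-likelihood test called 1 of these higher and 0 lower in zmrpn1 (Benjamini-Hochberg adjusted p under 0.05). Over all tested genes 12.4% were called, 6.63% as higher and 5.82% as lower, so 1 call in 7 (14.3%) is near the background. Without the row listed as bz2 it is 1 call in 6 (16.7%). At an unadjusted edgeR p under 0.05, 3 of the 7 rows passed, against 23.4% of all tested genes. The median log2 change of the 7 was 0.124, against 0.00122 over all tested genes, and their median absolute log2 change was 0.175, against 0.104. Without the row listed as bz2 these medians were 0.128 and 0.217. The absolute median of 0.175 is the value of fht1, a row of 62 counts with a standard error of 0.432. That of 0.217 lies midway between fht1 and c2, neither of which passed. Of the 7 values 5 were above 0 and 2 below. In bulk tissue, fewer cells of a type and less RNA per cell cannot be told apart.

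**Figure D1:**
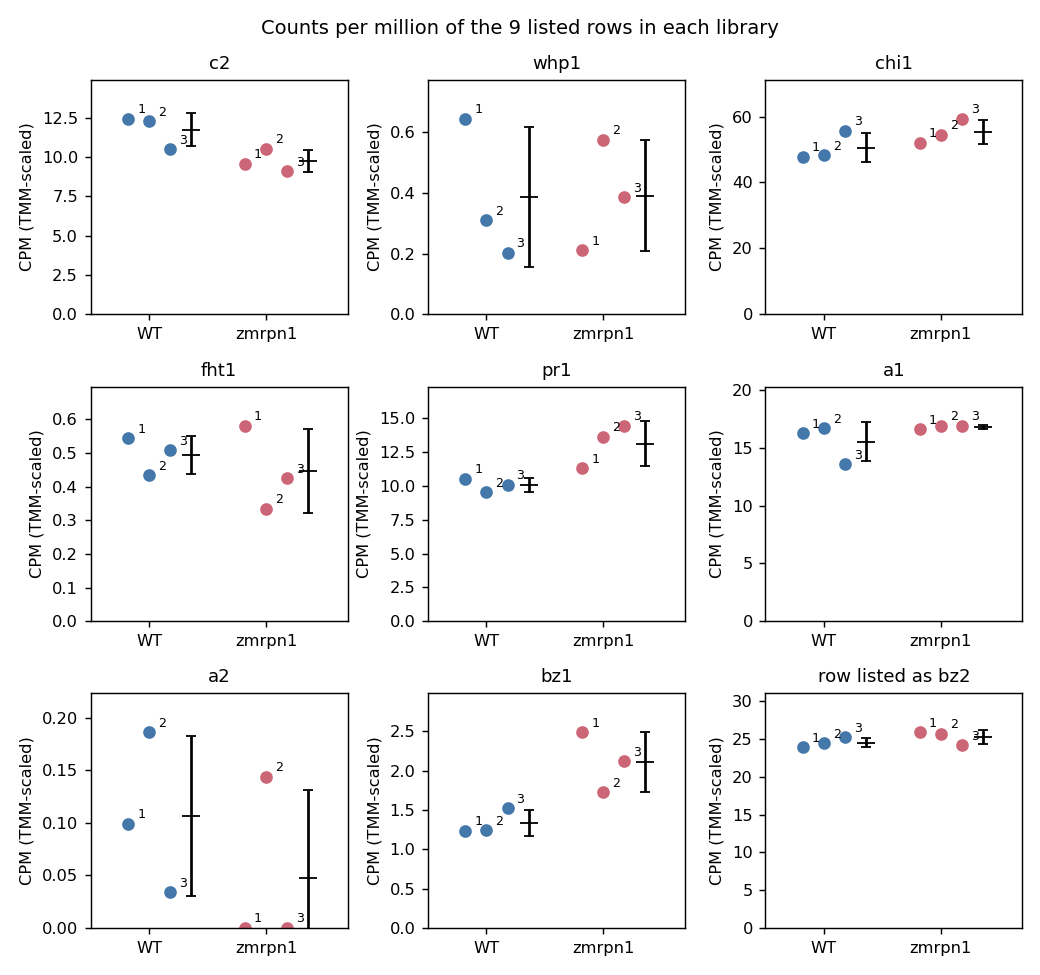
CPM (TMM-scaled, axes from 0) of the 9 listed rows, with blue points for the 3 WT libraries and red points for the 3 zmrpn1 libraries, each marked by its replicate number. Black bars give the mean and SD of a group (the lower end for a2 in zmrpn1 is drawn only to 0); pr1 and bz1 are the panels in which every red point lies above every blue one.

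The first committed step, chalcone synthase, was read almost wholly from c2. The c2 row had 12.4, 12.3 and 10.5 CPM in WT replicates 1 to 3, and 9.57, 10.5 and 9.11 CPM in zmrpn1 replicates 1 to 3. WT replicates 1 and 2 stood above all other libraries, while WT replicate 3 and zmrpn1 replicate 2 lay together, so the groups touched. The means were 11.7 ± 1.06 CPM in WT and 9.74 ± 0.725 CPM in zmrpn1 (SD, n = 3). The log2 change of -0.26 (standard error 0.11) did not pass (edgeR adjusted p = 0.118, unadjusted p = 0.0204). Its 95% interval, before adjustment, ran from -0.48 to -0.04. With each library left out in turn the log2 change ran from -0.35 without WT replicate 3 (edgeR adjusted p = 0.0545) to -0.21 without zmrpn1 replicate 3 (edgeR adjusted p = 0.31).

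The second chalcone synthase gene, whp1, was close to the limit of detection. WT replicates 1 to 3 held 13, 5 and 6 counts of it and zmrpn1 replicates 1 to 3 held 4, 12 and 10, or 0.203 to 0.643 CPM in WT and 0.212 to 0.574 CPM in zmrpn1. The groups overlapped over nearly their whole range. This row did not reach the count minimum for the test. The ratio of zmrpn1 to WT, from 26 and 24 counts in all, was 1.09 with an exact 95% interval of 0.599 to 1.98, which covers counting error only. With low-count genes also tested, its log2 change was 0.07 (standard error 0.55, edgeR adjusted p = 0.971).

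Between them c2 and whp1 gave 783 counts in WT and 663 in zmrpn1, of which whp1 held 3.07% in WT (exact binomial 95% interval 1.97% to 4.53%) and 3.92% in zmrpn1 (2.58% to 5.69%). Single libraries ran from 1.90% (WT replicate 3) to 5.17% (zmrpn1 replicate 2), and their intervals overlapped. Both genes encode the same enzyme and their transcripts are alike, so the split between the rows depends on how reads that match both were assigned, which no label or header states. The summed level of the pair was 12.1 ± 1.24 CPM in WT and 10.1 ± 0.858 CPM in zmrpn1 (SD, n = 3).

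The next step, chalcone isomerase, had the most counts of the set, 7051 over the 6 libraries. The chi1 row had 47.8, 48.2 and 55.8 CPM in WT and 52.1, 54.5 and 59.3 CPM in zmrpn1. WT replicate 3 lay above zmrpn1 replicates 1 and 2, and the other WT libraries lay below all zmrpn1 libraries. The means were 50.6 ± 4.49 and 55.3 ± 3.68 CPM (SD, n = 3). The log2 change of 0.12 (standard error 0.07) did not pass (edgeR adjusted p = 0.25), with a 95% interval from -0.01 to 0.26. Counting error was not the limit for chi1, since the variance between WT libraries was 9.63 times, and that between zmrpn1 libraries 5.52 times, what counting alone gives. With each library left out in turn the log2 change ran from 0.07 without zmrpn1 replicate 3 (edgeR adjusted p = 0.615) to 0.21 without WT replicate 3 (edgeR adjusted p = 0.0538).

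The hydroxylases are described in turn, and no test compared them. Flavanone 3-hydroxylase, which makes dihydroflavonols and is encoded by fht1, was read at 11, 7 and 15 counts in WT and 11, 7 and 11 counts in zmrpn1. These are 0.434 to 0.544 CPM in WT and 0.335 to 0.582 CPM in zmrpn1, with the groups overlapping. Its log2 change was -0.17 (standard error 0.43, edgeR adjusted p = 0.874). The 95% interval of the fold, 0.483 to 1.63, shows how wide a range of change these 62 counts leave undecided. Leaving out 1 library moved the log2 value to between -0.38 (without zmrpn1 replicate 1) and -0.02 (without zmrpn1 replicate 2).

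Flavonoid 3'-hydroxylase, encoded by pr1, adds a hydroxyl group to the B-ring and so turns precursors of red pelargonidin pigments into precursors of purple cyanidin pigments. The pr1 row had 10.5, 9.54 and 10.1 CPM in WT and 11.3, 13.6 and 14.5 CPM in zmrpn1. Every zmrpn1 library lay above every WT library, with zmrpn1 replicate 1 nearest to WT. The means were 10.1 ± 0.497 CPM in WT and 13.1 ± 1.64 CPM in zmrpn1 (SD, n = 3), from 665 and 874 counts. The rise was 1.31-fold (95% interval 1.13 to 1.52), or 0.39 on the log2 scale (standard error 0.11, edgeR adjusted p = 0.0087).

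The pr1 call rested in part on 1 library. Without zmrpn1 replicate 3 the log2 change was 0.31 and no longer passed (edgeR adjusted p = 0.074). It passed in the other 14 alternative fits, with adjusted p of 0.00183 to 0.044. The zmrpn1 libraries varied 4.22 times as much as counting alone gives, while the WT libraries varied 0.437 times as much. By TMM-scaled CPM, groups that did not overlap were found for pr1 and bz1, 2 of the 7 tested members (28.6%), against 27% of all tested genes. Without the row listed as bz2 the share is 2 of 6 (33.3%).

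**Figure D2:**
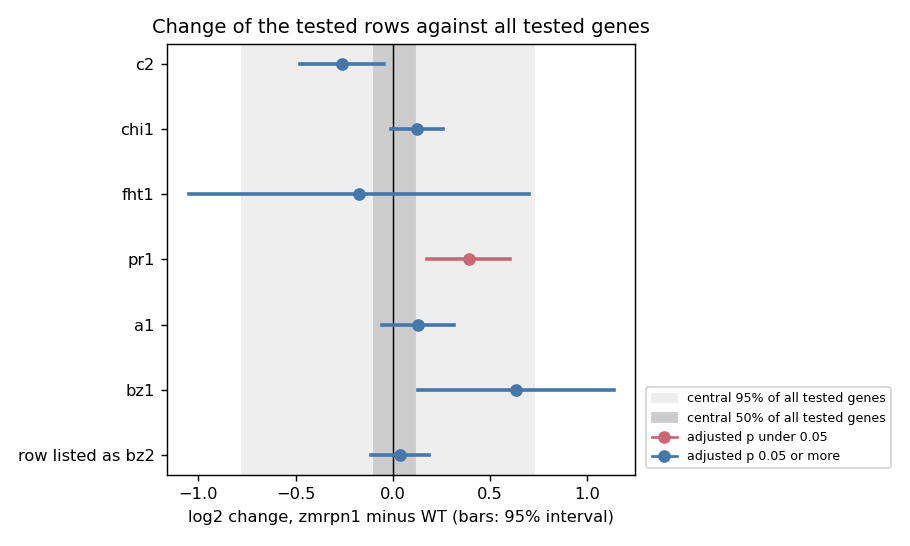
Log2 change between zmrpn1 and WT of the 7 tested rows, with points for the edgeR estimate and bars for its 95% interval (3 libraries per group). The grey bands hold the central 50% (-0.10 to 0.11) and 95% (-0.78 to 0.73) of all tested genes; pr1, in red, is the row with an adjusted p under 0.05, and all 7 estimates lie inside the wider band.

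The late steps lead from dihydroflavonols to coloured anthocyanins. Dihydroflavonol 4-reductase, which makes leucoanthocyanidins and is encoded by a1, had 16.3, 16.7 and 13.6 CPM in WT and 16.6, 16.9 and 16.9 CPM in zmrpn1. WT replicate 3 was the low library, and WT replicates 1 and 2 were near the zmrpn1 libraries, which spread very little. The means were 15.5 ± 1.7 and 16.8 ± 0.194 CPM (SD, n = 3). The log2 change of 0.13 (standard error 0.09) did not pass (edgeR adjusted p = 0.428). Without WT replicate 3 it was 0.03 (edgeR adjusted p = 0.909), and with any other library left out it was 0.13 to 0.18. By plain library totals the groups no longer overlapped for a1, with zmrpn1 narrowly above. The highest WT value was then 16.66 CPM (replicate 2) and the lowest zmrpn1 value 16.77 CPM (replicate 1). The share of all tested genes without overlap was not taken by plain totals.

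Anthocyanidin synthase, encoded by a2, was at the edge of detection in both groups. It had 2, 3 and 1 counts in WT and 0, 3 and 0 counts in zmrpn1, where 3 counts stand for 0.102 to 0.186 CPM depending on the library. The a2 row was not tested. From 6 counts against 3, the ratio of zmrpn1 to WT was 0.501 with an exact 95% interval of 0.0811 to 2.35 (counting error only), so no difference was detectable at this depth.

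The glucosyltransferase that makes anthocyanins stable, encoded by bz1, had the largest estimate of the 7 tested rows. It had 1.24, 1.24 and 1.52 CPM in WT and 2.49, 1.72 and 2.12 CPM in zmrpn1, so all zmrpn1 libraries were above all WT libraries. The counts were 25, 20 and 45 in WT and 47, 36 and 55 in zmrpn1. The means were 1.33 ± 0.166 and 2.11 ± 0.381 CPM (SD, n = 3). The estimate was 1.55-fold, or 0.63 on the log2 scale (standard error 0.25), and it did not pass (edgeR adjusted p = 0.0968, unadjusted p = 0.0153). It was positive and did not pass in each of 15 alternative fits, in which it ran from 0.51 to 0.76 with adjusted p of 0.0679 to 0.305.

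Zm00001d031489, the row listed as bz2, varied little. It had 23.9, 24.4 and 25.2 CPM in WT and 25.9, 25.7 and 24.2 CPM in zmrpn1, with the groups interleaved. The means were 24.5 ± 0.640 and 25.2 ± 0.939 CPM (SD, n = 3). The log2 change was 0.04 (standard error 0.07, edgeR adjusted p = 0.835), and the 95% interval of the fold ran from 0.925 to 1.14.

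Summed over the 9 rows, the level was 113, 113 and 117 CPM in WT and 119, 124 and 127 CPM in zmrpn1. The zmrpn1 libraries were higher, with means of 115 ± 2.32 and 123 ± 4.17 CPM (SD, n = 3, no test). Without the row listed as bz2 the means were 90.2 ± 1.75 and 98.0 ± 4.97 CPM. The early steps c2, whp1, chi1, fht1 and pr1 summed to 73.3 ± 3.36 CPM in WT and 79.0 ± 4.99 CPM in zmrpn1, and there the groups overlapped. The late steps a1, a2 and bz1 summed to 17.0 ± 1.6 CPM in WT and 19.0 ± 0.156 CPM in zmrpn1, and there they did not. The nearest late sums were 18.2 CPM in WT replicate 2 and 18.8 CPM in zmrpn1 replicate 2. Of single tested genes 27% had groups without overlap, and no such share was taken for sums. The chi1 row was the largest part of the early sum and of the sum over all rows (50.6 of 73.3 and of 115 CPM in WT). In the sum over all rows WT replicate 3 lay below every zmrpn1 library, unlike in chi1 alone. The late sum is mostly a1 (15.5 of 17.0 CPM in WT), which overlapped on its own and was low in WT replicate 3. CPM is not divided by transcript length, so the sums compare libraries and the levels of different genes are not ranked.

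The members with most counts did not all move together from library to library. Outside the row listed as bz2, 4 rows had at least 1000 counts: c2, chi1, pr1 and a1. Pearson r of log2 CPM over the 6 libraries ran from -0.86 to 0.71 across their 6 pairs, of which 2 were positive. After group means were taken out it ran from -0.81 to 0.78, with 3 positive. The c2 and chi1 pair was the lowest both ways, at -0.86 and -0.81. The chi1 and pr1 pair was the highest over all libraries, at 0.71, and stood at 0.51 within groups. The c2 and a1 pair went from -0.04 over all libraries to 0.78 within groups, the highest there. These values describe 6 libraries that share depth and scaling with both genes of a pair. WT replicate 3 differed from the WT mean by -0.15 log2 units for c2, -0.19 for a1 and 0.14 for chi1. It held the lowest WT value of both c2 and a1 and the highest of chi1, and its depth was the greatest of the 6. The part of depth or of this library in these values was not tested.

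**Figure D3:**
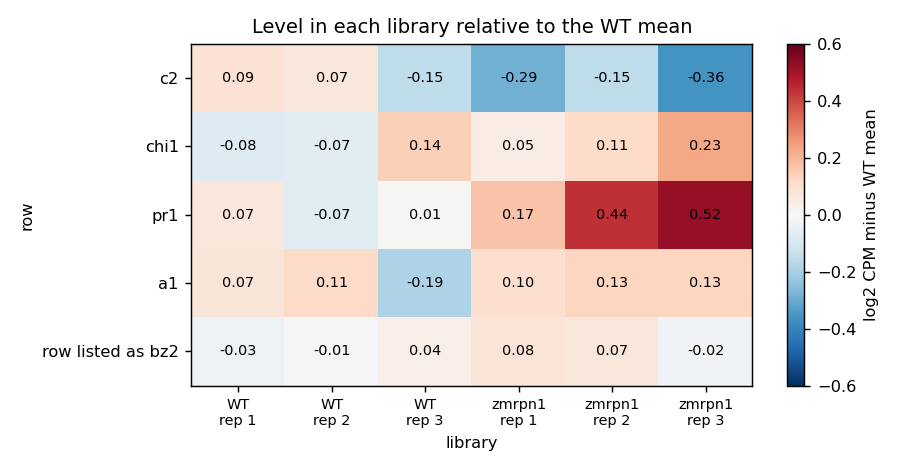
Log2 CPM (prior count 2) of the 5 rows with at least 1000 counts in each of the 6 libraries, as the difference from the mean of the 3 WT libraries; red is higher and blue is lower. The pr1 row reads 0.17, 0.44 and 0.52 in zmrpn1 replicates 1 to 3, and WT replicate 3 is the WT library with blue cells for c2 and a1 and a red cell for chi1.

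Changed genes were also counted among the neighbours of these rows in table order. Among the 10 tested rows on each side of each member, 19 of 180 were called (10.6%, against 12.4% of all tested genes), 10 of them higher and 9 lower in zmrpn1. Single members had 1 to 4 called neighbours among 20, with 1 beside pr1 and 4 beside bz1. Among 20126 other tested genes of at least 1 log2 CPM, the profiles most like that of pr1 over the 6 libraries were those of Zm00001d046455 and Zm00001d010855, both at an r of 0.99. With 6 libraries 574 of those genes had an r above 0.9, so this likeness is common. The log2 changes of that pair were 0.36 (edgeR adjusted p = 0.0548) and 0.14 (edgeR adjusted p = 0.0961), and the identifiers carry no name here.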

How the data were processed

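Per the labels' protocols, DNase-treated total RNA went into NEBNext Ultra II libraries. Selection of mRNA and strand handling are not stated there, so a gene and its antisense partner cannot be told apart. Per the submitters' processing notes, the tools were featureCounts 1.6.4, HISAT2 2.2.1, Trimmomatic 0.39, DESeq2 and StringTie 1.3.6, on B73 RefGen_v4, with no settings given. The authors deposited raw counts of reads per gene, without normalization; columns were matched by genotype code and replicate number.

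Counts were fitted with edgeR 4.0.16 in R 4.3.3 (filterByExpr, minimum count 10; TMM scaling; robust quasi-likelihood F test; Benjamini-Hochberg over all 23477 tested genes). CPM uses TMM-scaled totals. A standard error is the log2 change over the root of the F statistic. The test was checked on simulated counts. Chi-square per degree of freedom between libraries of a group was 2.00 to 4.65, more than counting alone gives. Each library was treated as a replicate, though this spread cannot show that they came from separate plants. Same-numbered libraries did not deviate together (r of -0.0374, 0.0198 and 0.0306, against -0.0565 to 0.0355 for differently numbered ones). The main fit has no replicate block, but such weak correlations cannot show whether a number marks a shared plant, plot or day. Every member was named, with the 2 profiles most like the member of lowest adjusted p. The members and lists were chosen with earlier results of these data known. Alternatives were other scalings, filters, dispersion and tests (DESeq2 1.42.0, limma-voom with limma 3.58.1), a replicate block and leaving out each library. Gene names came from a reference table of another assembly, used for names and order alone.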

Additional observations from a re-analysis of the deposited data

How the results depend on the processing

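The 7 tested members had 104 values under 15 alternative fits. None changed sign (0 of 104), and 103 stayed on their side of the threshold. The exception was pr1 without zmrpn1 replicate 3, at a log2 change of 0.311 (edgeR adjusted p = 0.074), which also took the number of members higher in zmrpn1 from 1 to 0. The cause was not tested. Leaving out 1 library gave log2 changes of 0.311 to 0.482 for pr1 and 0 to 1 members higher in zmrpn1. With the replicate block pr1 was at 0.39 (edgeR adjusted p = 0.00632), and the block changed no call. No member was called lower in any alternative fit: 0 passed as lower with edgeR, DESeq2 or limma-voom. The c2 and fht1 estimates were below 0 in every fit that held them. Of these, 1 (c2) had an unadjusted edgeR p under 0.05 in the main fit. The 1 CPM filter left no value for fht1. With 5 or 25 tested neighbours on each side, 10% and 13.8% were called. Leaving out the row listed as bz2 from the sums, counts, medians and correlations was chosen after seeing the data. Depth limits whp1, fht1 and a2, at 50, 62 and 9 counts in all.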
